A study of Mus musculus with 4 samples.

Results

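Cxcl9, Cxcl10 and Cxcr3 are 3 of the 27998 genes in a single-cell RNA series of the leukocytes of B16-F10 tumours, a transplantable melanoma line of C57BL/6 mice. They were taken by symbol, and all 3 were found. The libraries S1 and S2 are from Adar1-null tumours and S3 and S4 from control tumours, both grown in C57BL/6 recipients. Adar1, encoded by Adar, edits adenosine to inosine in double-stranded RNA, and its loss was in the implanted tumour cells. Tumour cells were implanted with matrigel, and tumours were removed on day 14. After a digestion of 10 min at 37 °C, the cells went over a density gradient and were then selected with magnetic beads for CD45. The droplet-based 10x 3′ v2 kit counts each captured molecule once through a unique molecular identifier (UMI). The question addressed was how the infiltrate differs when the tumour lacks Adar1. The series design names 2 tumours of each kind, but whether the tumours of a kind came from 1 or several clones of the line is not given in the sources used here.

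CXCL9 and CXCL10 are chemokines that bind 1 receptor, CXCR3, which is carried by activated effector T cells, regulatory T cells, natural killer (NK) cells and plasmacytoid dendritic cells. Interferon-gamma induces both ligands. Cxcl10 also responds to type I interferon and to NF-kB, so that the levels of the 2 ligands need not move together. In tumours the ligands are best known as products of macrophages and dendritic cells that draw CXCR3-bearing T cells in and position them.

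In the mouse build GRCm38 (mm10) with GENCODE M21, Cxcl9 (ENSMUSG00000029417) is a 4-exon gene at chr5:92321347-92328079 and Cxcl10 (ENSMUSG00000034855) a 4-exon gene at chr5:92346638-92348889. Both lie on the minus strand, with 18558 bases between them. Cxcr3 (ENSMUSG00000050232) has 2 exons and lies at chrX:101731535-101734269, also on the minus strand. Cxcl10 lies within the span of Art3 on the opposite strand (chr5:92331827-92414628), and whether counting used strand is not given in the sources used here. Art3 had 17, 38, 41 and 22 UMIs in S1 to S4, against 5742, 10976, 6774 and 4693 for Cxcl10. The 250 bases before the start of each ligand are shown because the cells with 1 ligand or the other differed in interferon-response genes, as described below. They are the RefSeq promoters of GRCm38.p6, chr5:92328080-92328329 and chr5:92348890-92349139, written 5′ to 3′ on the minus strand, with the motif matches in capitals.
Cxcl9: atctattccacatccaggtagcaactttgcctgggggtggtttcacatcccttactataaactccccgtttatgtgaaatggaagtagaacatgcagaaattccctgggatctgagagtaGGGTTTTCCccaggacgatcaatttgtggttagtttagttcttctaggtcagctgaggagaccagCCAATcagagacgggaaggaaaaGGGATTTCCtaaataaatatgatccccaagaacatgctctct
Cxcl10: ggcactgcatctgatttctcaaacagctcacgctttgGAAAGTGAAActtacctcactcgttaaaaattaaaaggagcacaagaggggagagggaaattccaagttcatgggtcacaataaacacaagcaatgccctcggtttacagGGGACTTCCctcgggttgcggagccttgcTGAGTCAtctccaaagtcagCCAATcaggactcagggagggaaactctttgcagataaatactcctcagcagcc

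Only the Cxcl10 window held the core of an interferon-stimulated response element, spelled GAAANNGAAA. The match, GAAAGTGAAA, ran from 213 to 204 bases before the start, and 3.038% of 27025 promoters of the same length hold one on either strand. A shortened NF-kB motif was spelled GGGNNTTCC after the sequences had been seen. It matched at 2 places in the Cxcl9 window (130 to 122 and 42 to 34 bases before the start) and at 1 in the Cxcl10 window (103 to 95). Any match was found in 4.881% of promoters. Since the spelling followed the sequences, that share and these counts are a description only. An AP-1 motif, spelled TGANTCA and found in 6.868% of promoters, matched once, 74 to 68 bases before the Cxcl10 start. The CCAAT box, present in 34.46% of promoters, matched once in each ligand window. A gamma-activated site spelled TTCNNNGAA, held by 7.179% of promoters, matched in neither. Sites that depart from these spellings were not searched for, so a window without a match may still hold an interferon-responsive element. No letters of these 5 motifs overlapped each other in the 2 windows. The same length before the RefSeq start of Cxcr3 held none of the 5 motifs.

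After filtering, S1 to S4 held 1939, 1936, 1945 and 2749 cells, with median depths of 7918, 7618, 8788 and 7854 UMIs and library totals of 23382804 to 32672771 UMIs. Cells were assigned to gates by UMIs of defining markers, none of them a gene of the axis. The largest were a monocyte or macrophage gate of 4962 cells, a T cell gate of 1344 and a melanoma gate of 1181, so the CD45 selection had left tumour cells in the suspension. The monocyte or macrophage gate was split into C1q macrophages (3681 cells), monocytes (737) and other myeloid cells (544). The markers bore the gates out: C1q macrophages had a median of 113 C1q UMIs and 0 Cd3 UMIs, and CD8 T cells 31 Cd3 UMIs and 1 C1q UMI. Barcodes with markers of 2 lineages (185 cells) were kept out of the gates but counted in the whole infiltrate. In 2 or more libraries, 38 barcode sequences occurred. S4 stood apart: its monocyte or macrophage gate had 1879 cells against 958 to 1123 elsewhere, and 738 cells of 1 macrophage cluster described below, against 24 to 158. The targeted gene, Adar, was at 9.35, 12.9, 11.2 and 13.4 CPM (UMI counts scaled to a common total) in the melanoma gates of S1 to S4, which overlap between groups. The kit reads the 3′ end, and the place of the lesion is not given in the sources used here, so this level does not test the labels.

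Cxcl9 was carried mainly by macrophages and by a few very rich stromal cells. In C1q macrophages its level was 750, 764, 600 and 179 CPM in S1 to S4, and in monocytes 455, 1000, 594 and 218 CPM. These 2 gates overlapped, and in both S4 was the lowest library. After every cell was thinned to 3900 UMIs, a depth that all cells reached, 37.4% of C1q macrophages (exact binomial 95% interval 35.8 to 39.0) and 38.5% of monocytes (35.0 to 42.2) had a Cxcl9 UMI. Intervals and limits from counts of 0 cover counting error only. Of 41 plasmacytoid dendritic cells, identified by Siglech, Ccr9 and Cox6a2, 0 had a UMI, which allows a share of up to 7.32% at a median depth of 4961 UMIs. The melanoma gate had 2.62% after thinning and 17.6% at its full median depth of 32716 UMIs.

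Among dendritic cells, Cxcl9 was at 333, 97.9, 160 and 177 CPM in the cross-presenting type 1 cells (cDC1, marked by Xcr1 and Clec9a) and at 188, 427, 214 and 183 CPM in type 2 cells (cDC2). In mature Ccr7-bearing dendritic cells it was at 217, 270, 386 and 172 CPM. These 3 gates overlapped each other and the macrophage gates. The highest levels per cell were in the 14 endothelial cells, at 4447, 11617, 3011 and 246 CPM, and the 50 fibroblasts, at 2106, 5807, 2216 and 23.6 CPM. Each of these stromal gates rested on 3 to 22 cells a library, and S4 was again the lowest.

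Cxcl10 was highest in monocytes, at 1296, 2442, 1477 and 929 CPM. C1q macrophages had 545, 789, 370 and 224 CPM, less than the monocytes of the same library in all 4 libraries, and the ranges of the 2 gates did not overlap. A Cxcl10 UMI was found in 50.9% of thinned monocytes (47.2 to 54.5) and 27.5% of thinned C1q macrophages (26.1 to 29.0). Type 2 dendritic cells followed at 694, 1113, 729 and 221 CPM, overlapping the C1q macrophages. In cDC1 Cxcl10 was at 34.5, 10.9, 48.5 and 45.8 CPM, below every library of the macrophage, monocyte and cDC2 gates. The T cell gate had 51.6, 48.4, 21.3 and 9.96 CPM, and the 41 plasmacytoid dendritic cells a single Cxcl10 UMI.

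**Figure D1:**
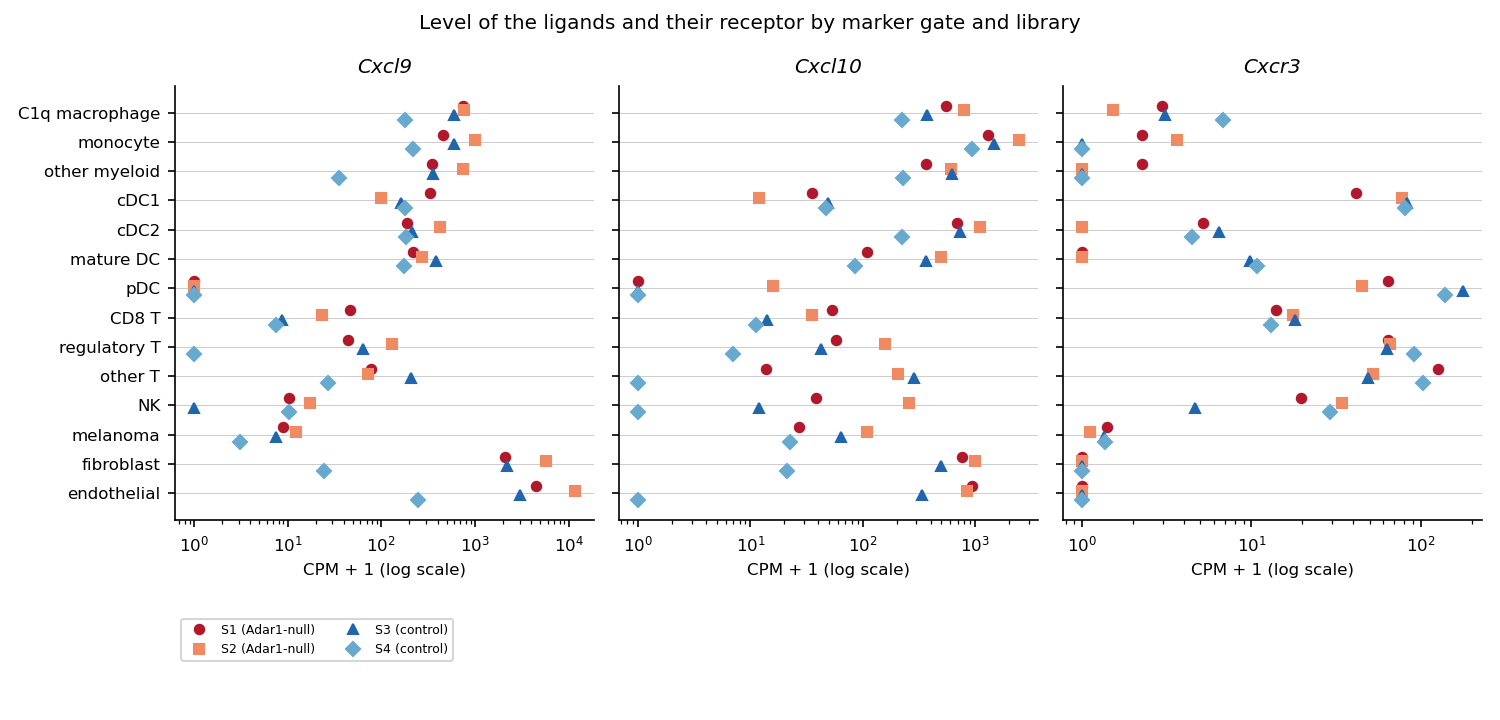
Level of each gene (CPM + 1, log scale) in 14 marker gates, with 1 point per library; red and orange are Adar1-null, blues are control. Cxcl10 peaks in monocytes at 929 to 2442 CPM and Cxcl9 in the few endothelial cells and fibroblasts. Cxcr3 is highest in plasmacytoid dendritic cells, other T cells (neither CD8 nor regulatory), regulatory T cells and cDC1, which overlap.

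Because macrophages were so many, they held most of the ligand molecules. Of all Cxcl9 UMIs in S1 to S4, the monocyte or macrophage gate held 78.2%, 65.3%, 76.5% and 89.6%, and the C1q macrophages alone 68.7%, 45.7%, 66.2% and 81.0%. The same gate held 81.5%, 78.3%, 77.0% and 89.5% of the Cxcl10 UMIs, with a larger part in monocytes (18.0%, 34.1%, 19.3% and 18.9%) than for Cxcl9 (5.40%, 15.9%, 6.42% and 7.02%). Fibroblasts, few as they were, held 14.8% of the Cxcl9 UMIs of S2 and 0.236% of those of S4. Melanoma-gate cells held 4.58%, 9.09%, 8.02% and 5.03% of the Cxcl10 UMIs. With 2 libraries against 2 an exact two-sided permutation test over the 6 splits cannot give a p below 0.3333, and no test of these shares between genotypes was run.

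**Figure D2:**
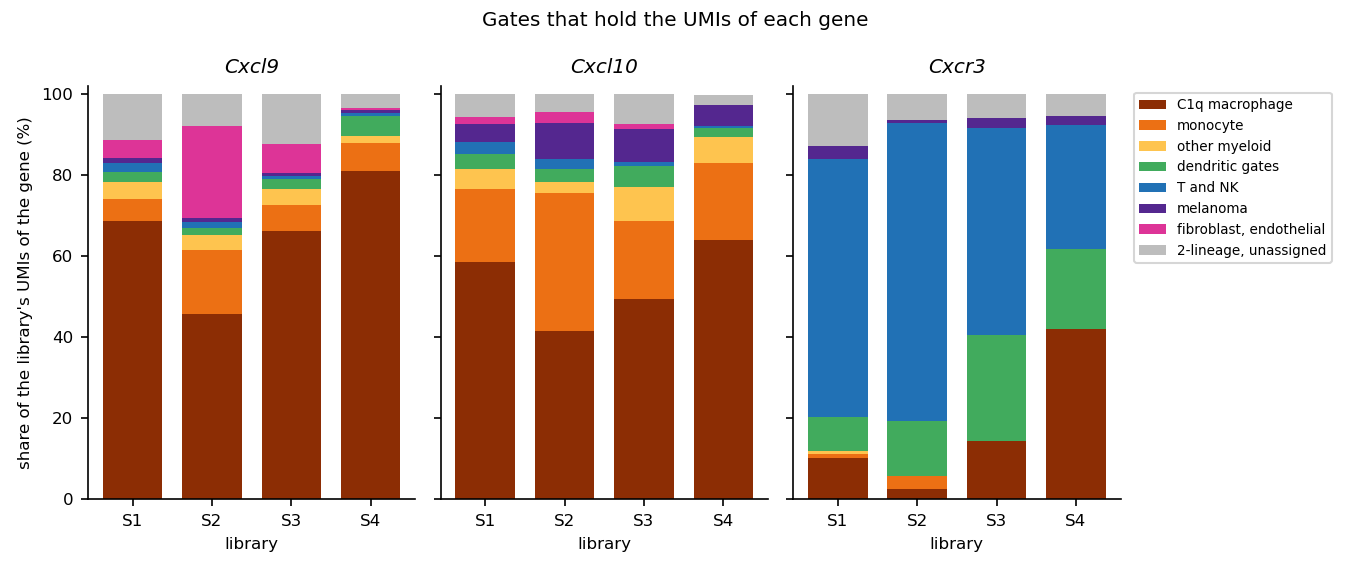
Share of each library's UMIs of the gene held by each group of gates (stacked to 100%; S1 and S2 Adar1-null, S3 and S4 control). C1q macrophages and monocytes hold most of both ligands, and T and NK cells most of Cxcr3 in S1 to S3.

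Within the monocyte or macrophage gate the ligands were concentrated in few cells. The richest 5% of cells held 43.3% of its Cxcl9 UMIs and 59.8% of its Cxcl10 UMIs, and the highest single cells held 131 and 208. Of the thinned cells, 785 had both ligands, 997 Cxcl9 alone, 734 Cxcl10 alone and 2446 neither. Cells with Cxcl9 had Cxcl10 more often than cells without it in every library, at 40.05% against 26.4% in S1, 55.1% against 43.6% in S2, 43.0% against 26.4% in S3 and 32.1% against 14.6% in S4. Detection of 1 ligand therefore marked sets of cells that overlapped in part. A cell without a UMI may still hold the transcript, so cells with 1 ligand alone need not lack the other. Without thinning, detection in this gate rose from 35.9% to 43.5% for Cxcl9 and from 30.6% to 38.1% for Cxcl10.

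Clusters of this gate, made without the 3 genes, split the ligands further. The cluster led by the cell division genes Stmn1, Birc5 and Ube2c (cluster 0) held the most Cxcl9, 51.7% of the gate's UMIs, and 30.9% of its Cxcl10 UMIs. Its Cxcl9 level was 922, 613, 696 and 407 CPM, and its Cxcl10 level 558, 510, 331 and 399 CPM. The cluster led by Ly6c2, Il1b and Ly6i (cluster 1) was high in both, with 960, 1205, 1046 and 536 CPM of Cxcl9 and 1121, 1756, 1069 and 1136 CPM of Cxcl10. A smaller cluster led by Hp, Chil3 and Ifitm6, genes of blood monocytes (cluster 7), had 1757, 2384, 1805 and 998 CPM of Cxcl10 but 132, 139, 223 and 114 CPM of Cxcl9. The cluster led by Arg1, Mmp12, Cxcl3 and Spp1 (cluster 2) had 191, 204, 107 and 71.2 CPM of Cxcl9. Lowest in Cxcl9 was cluster 5, led by Cd209f, Sepp1, Saa3, Gas6 and Cbr2, at 31.1, 19.8, 38.0 and 17.5 CPM. S4 held 738 cells of cluster 5 and 97 of cluster 1, while S2 held 24 and 515, so the make-up of the gate moved with the low Cxcl9 of S4. The part of that make-up in the genotype values below was not tested.

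Cxcr3 was a sparse transcript, with 118, 124, 133 and 186 UMIs in the whole of S1 to S4. Its highest levels were in plasmacytoid dendritic cells, at 63.4, 44.3, 177 and 137 CPM from 22 UMIs in all, in other T cells (neither CD8 nor regulatory) at 126, 51.2, 47.6 and 103 CPM, in regulatory T cells at 63.0, 64.7, 62.2 and 90.8 CPM and in cDC1 at 40.2, 76.2, 82.0 and 79.4 CPM. These 4 gates overlapped. CD8 T cells, the largest T cell gate, had 12.9, 16.6, 17.1 and 12.04 CPM, and NK cells 18.7, 33.1, 3.64 and 28.1 CPM. The melanoma gate had 0.40, 0.11, 0.35 and 0.37 CPM, and fibroblasts and endothelial cells had no Cxcr3 UMI.

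Regulatory T cells carried more Cxcr3 than CD8 T cells. The regulatory T gate held 60, 34, 33 and 20 cells in S1 to S4, and the NK gate 14, 36, 38 and 14. With the library as a block, CD8 T cells stood at a log2 difference of -2.10 ± 0.24 (SE) from regulatory T cells (edgeR quasi-likelihood test, adjusted p = 1.006e-08), lower in 4 of 4 libraries, where 16.3% of 8965 genes were called in either direction. After thinning, 27.2% of regulatory T cells (20.2 to 35.2) and 4.71% of CD8 T cells (3.56 to 6.10) had a Cxcr3 UMI, against 0.0847% of melanoma-gate cells. Between CD8 T and NK cells the difference of -0.32 ± 0.48 did not pass (adjusted p = 0.785, with 8.62% of 8875 genes called), and without S2 it was 0.21.

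T cells held 61.9%, 66.9% and 50.4% of the Cxcr3 UMIs of S1, S2 and S3 but 29.0% of those of S4, where the monocyte or macrophage gate held 41.9%. Over all libraries, most of the macrophage signal lay in 1 cluster. Cluster 5 had 9.15, 6.61, 10.3 and 12.4 CPM and 72.0% of the gate's Cxcr3 UMIs, while the other named clusters of the gate were between 0 and 4.72 CPM. By library, cluster 5 held 5, 1, 13 and 66 UMIs in S1 to S4, of 14, 7, 19 and 78 in the gate. Cluster 5 is led by genes of resident macrophages, among them the scavenger protein Sepp1 and the ligand Gas6.

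Of the genotype differences tested for the 3 genes, that of Cxcl10 in CD8 T cells passed over all genes and no other did. The estimates for both ligands were above 0 in every tested gate, though for Cxcl10 they fell below 0 in other myeloid cells without S4 (-0.40) or S2 (-0.22) and in the melanoma gate without S2 (-0.68). In the whole infiltrate Cxcl9 was at 287, 413, 324 and 90.7 CPM and Cxcl10 at 245, 469, 268 and 144 CPM, and for each the groups overlapped. The log2 differences of Adar1-null over control were 0.70 ± 0.69 for Cxcl9 (edgeR, adjusted p = 0.747) and 0.73 ± 0.48 for Cxcl10 (adjusted p = 0.651), where 0% of 13467 genes were called. With each library left out in turn, Cxcl9 ran from 0.06 without S4 to 1.87 without S3, and Cxcl10 from 0.20 without S2 to 1.23 without S3.

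In the monocyte or macrophage gate, where 0% of 10894 genes were called, Cxcl9 was at 677, 809, 579 and 169 CPM and Cxcl10 at 603, 1103, 481 and 267 CPM. Both Adar1-null libraries lay above both controls for either ligand, as for 17% of all genes tested. The differences were 0.99 ± 0.58 and 1.19 ± 0.41 (edgeR, adjusted p = 0.855 for both). With each library left out in turn, Cxcl9 ran from 0.36 without S4 to 2.13 without S3, and Cxcl10 from 0.68 without S2 to 1.67 without S3. C1q macrophages showed 0.96 ± 0.56 and 1.16 ± 0.31 (adjusted p = 0.863 for both), with 0% of 10622 genes called and 17.2% separated upward. Monocytes showed 0.84 ± 0.70 for Cxcl9 and 0.63 ± 0.34 for Cxcl10 (adjusted p = 0.998 for both, 0% called), and other myeloid cells 1.44 ± 1.26 and 0.15 ± 0.49 (0% called). In monocytes Cxcl10 was 0.10 without S2 and 1.01 without S1, and Cxcl9 was 0.17 without S2. Cxcl9 passed in monocytes without S1 (1.30, adjusted p = 0.00602) and in other myeloid cells without S3 (3.85, adjusted p = 0.00156). At an unadjusted p under 0.05 edgeR gave 166 genes higher and 344 lower in the monocyte or macrophage gate, and DESeq2 called 3 higher and 18 lower after adjustment.

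Cxcl10 was higher in CD8 T cells of Adar1-null tumours by the main test, a call that several alternatives ended. In S1 to S4 the gate had 51.97, 33.96, 12.99 and 10.3 CPM, with no overlap between the groups, from 141, 121, 35 and 30 UMIs. The log2 difference was 1.83 ± 0.25 (edgeR, adjusted p = 0.0288), where 0.0329% of 9107 genes were called in either direction and 21.5% were separated upward. Cxcl9 in the same cells, at 45.0, 22.2, 7.80 and 6.53 CPM, differed by 2.16 ± 0.40 and did not pass (adjusted p = 0.259). Over all T cells the differences were 1.63 ± 0.27 for Cxcl10 (adjusted p = 0.162) and 1.65 ± 0.43 for Cxcl9 (adjusted p = 0.627), with 0.0319% of 9399 genes called and 22.2% separated upward. The Cxcl10 call in CD8 T cells was lost without S4 (1.68, adjusted p = 0.151), without cells that held a myeloid marker UMI (1.60, adjusted p = 0.0850), with doublets kept (1.83, adjusted p = 0.0805) and with a stricter gate (1.61, adjusted p = 0.0705). The other alternatives kept it, down to an edgeR adjusted p of 4.9e-14 with no filter on low counts. Cxcl9 in CD8 T cells passed without S1 (1.60) or S2 (2.61), and both ligands passed over all T cells without S3 (2.49 for Cxcl9 and 2.27 for Cxcl10).

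The response of T cells was not shown to differ from that of macrophages. The difference of the 2 log2 responses, T cells minus monocytes or macrophages, was 0.60 ± 0.30 for Cxcl9 and 0.52 ± 0.32 for Cxcl10 (edgeR interaction with library as a block, adjusted p = 0.921 and 0.944), where 0.0089% of 11239 genes were called. Leaving out 1 library moved it from 0.23 without S1 to 1.0198 without S2 for Cxcl9, and from 0.09 to 1.03 for Cxcl10 (without S2, edgeR adjusted p = 0.917 and 0.877, unadjusted 0.0032 and 0.0022). In the melanoma gate, Cxcl9 at 7.96, 11.3, 6.56 and 2.11 CPM differed by 1.20 ± 0.70 and Cxcl10 at 26.2, 107, 63.6 and 21.6 CPM by 0.66 ± 1.17 (adjusted p above 0.99 for both). There 0.0617% of 11337 genes were called and 17.4% were separated upward. Without S3 the melanoma-gate difference of Cxcl9 was 2.18 and passed.

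Cxcr3 in T cells was close to equal in the 2 groups of libraries, and its groups overlapped. It was at 22.6, 20.9, 21.995 and 17.3 CPM in the T cell gate, a difference of 0.10 ± 0.20, and in CD8 T cells the estimate was 0.00 ± 0.25 (edgeR, adjusted p = 0.9996). In the monocyte or macrophage gate it was at 1.80, 0.899, 1.75 and 4.96 CPM, a difference of -1.34 ± 0.65 that did not pass and that was -0.37 without S4, the library with most of cluster 5.

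**Figure D3:**
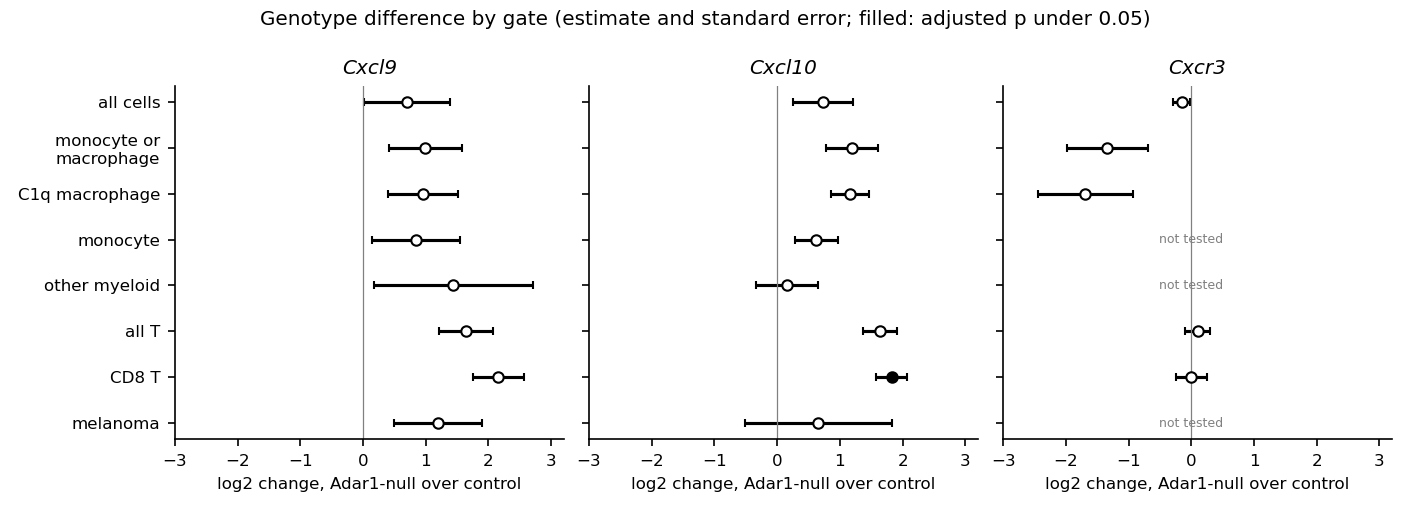
Log2 difference of Adar1-null over control for each gene and gate (point, estimate; bar, SE; filled, adjusted p under 0.05; 2 libraries a group). Cxcl10 in CD8 T cells, at 1.83, is the filled point, and Cxcr3 in T cells lies at 0.10.

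Genes upstream of the ligands were read from lists of the interferon-gamma route (such as Irf1 and the guanylate-binding proteins), of the type I interferon route (such as Ifit1 and Rsad2) and of NF-kB input. None of the 24 and 23 tested members of the interferon lists was called in the monocyte or macrophage gate, and their median differences were 0.48 and 0.62 against -0.005 for all genes. In that gate, where 17% of all genes had both Adar1-null libraries above both controls, 9 of the 23 type I, 3 of the 24 interferon-gamma and 4 of the 8 NF-kB members did. In the T cell gate, where 22.2% of all genes did, so did 12 of 22, 3 of 24 and 6 of 8, with medians of 0.61, 0.11 and 0.40. The type I share varied by gate. It was 4 of 23 in the whole infiltrate (34.4% of all genes), 4 of 22 in other myeloid cells (20.6%) and 3 of 21 in the melanoma gate (17.4%). In C1q macrophages it was 7 of 23 (17.2%), in CD8 T cells 9 of 20 (21.5%) and in monocytes 14 of 22 (16.5%). Ifng, the interferon made by T cells, was at 295, 463, 381 and 194 CPM in CD8 T cells, with overlap between the groups. Dpp4, a peptidase that trims these chemokines, was at 17.0, 16.8, 13.4 and 18.6 CPM in CD8 T cells.

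T cells are not a known main source of these ligands, and droplets can carry free RNA from lysed cells. Free RNA of 1 source keeps its genes in 1 ratio within a library, so each ligand's T cell level was set against 22 macrophage transcripts such as C1qa, Lyz2 and Apoe. Both ligands were also found in endothelial cells and fibroblasts, so a single source is an assumption. In the T cell gate these 22 stood at a median of 2.25%, 1.52%, 1.71% and 2.01% of their level in monocytes or macrophages. Cxcl9 stood at 6.70%, 3.803%, 2.95% and 3.81%, which is 2.98, 2.51, 1.72 and 1.89 times the level at the reference median. Cxcl10 stood at 8.56%, 4.39%, 4.43% and 3.73%, or 3.801, 2.90, 2.59 and 1.85 times. Both ligands were thus above the median reference gene in 4 of 4 libraries, but within the reference range in all but S1, where Cxcl10 exceeded all 22 genes. In S4, 6 of the 22 exceeded either ligand. The highest of the 22 stood at 49.5%, 62.9%, 84.4% and 83.4% in NK cells and 21.2%, 25.5%, 41.4% and 25.7% in regulatory T cells. Whether lymphocytes made some of the 22 themselves was not tested, so the top of the range need not be free RNA. CD8 T cells had 3.04, 1.95, 0.910 and 1.96 times the level at the reference median for Cxcl9. For Cxcl10 they had 3.94, 2.18, 1.82 and 1.95 times.

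Leaving out every T cell with a UMI of any gene of a short myeloid list, Csf1r, Adgre1 and Fcgr1 among them, kept 1023 cells. Cxcl10 was then at 3.96, 3.73, 2.37 and 2.69 times the reference level in S1 to S4. Cxcl9 was at 4.09, 2.09, 1.42 and 0.579 times, but the S4 value rests on 3 UMIs in 190 cells, too few to place it above or below the reference. In CD8 T cells so restricted, the Cxcl9 ratios were 4.70, 1.62, 0.895 and 0.635, and those of Cxcl10 4.16, 2.67, 1.84 and 2.81. They rest on 104, 36, 14 and 3 UMIs of Cxcl9 and 82, 81, 24 and 21 of Cxcl10. In these CD8 T cells Cxcl10 was above the level at the reference median in every library.

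A few cells carried much of the T cell signal. Of the 147, 122, 52 and 20 Cxcl9 UMIs in the T cell gate, the 5 richest cells of each library held 62.6%, 44.3%, 53.8% and 80.0%. For Cxcl10, with 167, 192, 65 and 31 UMIs, they held 54.5%, 31.8%, 47.7% and 48.4%. T cells with a Cxcl9 UMI also carried more macrophage reference UMIs than T cells without, at 30.5 against 12.5 per 10000 UMIs in S1, 26.2 against 10.2 in S2, 35.8 against 12.4 in S3 and 44.0 against 18.3 in S4. For Cxcl10 the values were 31.1 against 12.1, 14.5 against 11.8, 15.3 against 14.5 and 25.6 against 18.6, a smaller gap in S2 to S4. The part of these macrophage transcripts in the genotype difference of T cells was not tested beyond the removal above. Regulatory T cells had a Cxcl9 UMI in 12.2% of thinned cells (7.42 to 18.7) and CD8 T cells in 3.23% (2.28 to 4.42). The melanoma gate, at 2.62% (1.79 to 3.71), overlapped the CD8 T cell interval and lay below that of regulatory T cells. Thinning removed a larger part of the UMIs of melanoma-gate cells, whose median depth was 32716 UMIs against 9091 in CD8 T cells. Whether the CD8 share exceeds that from free RNA was not tested.

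Melanoma-gate cells gave a contrast between the ligands. Their Cxcl9 was at 0.958, 1.38, 0.977 and 0.713 times the level at the macrophage reference median, while their Cxcl10 was at 3.54, 9.60, 11.4 and 4.62 times. The Cxcl10 UMIs were held by few cells, the richest with 256, and the richest 5% of the gate held 73.6% of them.

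**Figure D4:**
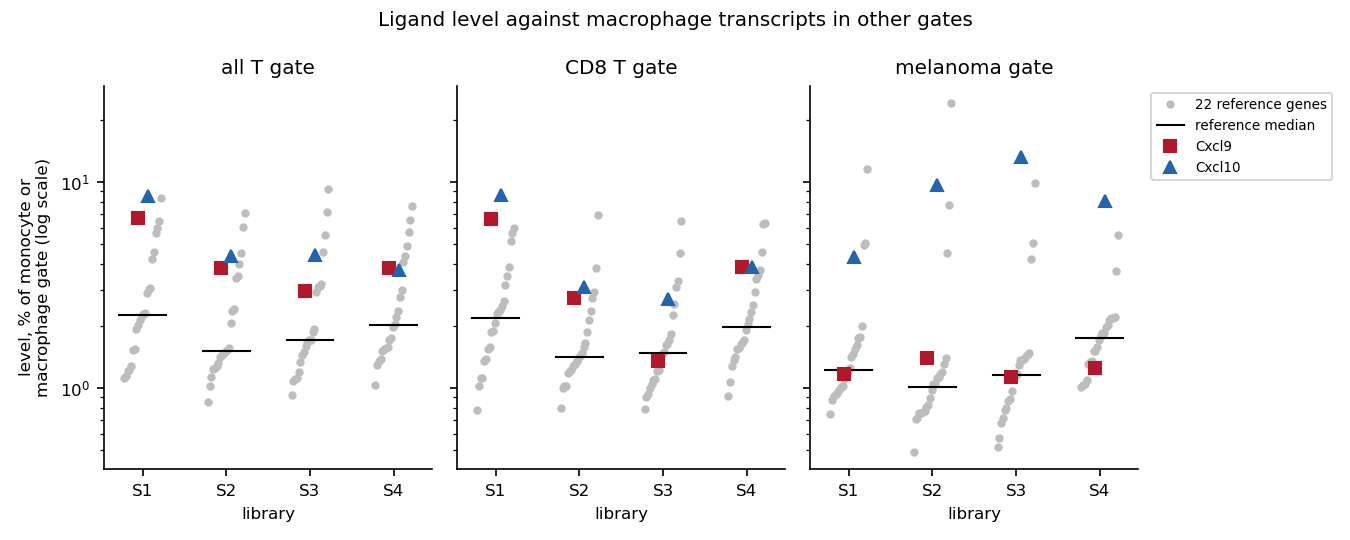
Level in the T, CD8 T and melanoma gates as a percent of the level in monocytes or macrophages of the same library (log scale), for 22 macrophage transcripts (grey; black line, median), Cxcl9 (red squares) and Cxcl10 (blue triangles). In the T gate the ligands lie above the median and, except Cxcl10 in S1, inside the grey range. In the CD8 T gate both exceed all 22 transcripts in S1, and Cxcl9 lies below the median in S3. In the melanoma gate Cxcl9 lies near the median and Cxcl10 well above it.

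Macrophages with Cxcl9 differed from those without it in their interferon-gamma genes. In thinned sums with the library as a block, 436 of 8971 genes were higher (4.86%) and 550 lower (6.13%) in Cxcl9-detected cells by edgeR at an adjusted p under 0.05. Both directions together gave 986 genes, and 511 without S3. Of 23 interferon-gamma route genes 13 were higher and 1 lower, with a median of 0.48 against -0.005 for all genes, while of 23 type I genes 1 was higher and 2 were lower. Higher were Ciita, the master regulator of MHC class II (1.11 ± 0.18), H2-Ab1 (0.75 ± 0.07), Socs1, a feedback inhibitor of interferon signalling (0.88 ± 0.12), Irf1 (0.42 ± 0.09) and Cd40 (0.87 ± 0.10). By size of p the adhesion molecule Vcam1 (1.54 ± 0.10) and the CXCR6 ligand Cxcl16 (0.86 ± 0.07) led.

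Genes of resident and alternatively activated macrophages were lower in those cells. Of 16 macrophage polarity genes 7 were lower and 2 higher. Folr2 fell from 277, 154, 502 and 605 CPM in undetected cells to 80.6, 58.8, 132 and 204 CPM in detected cells of S1 to S4. Lyve1 (-3.15 ± 0.17), Cd163 (-2.56 ± 0.22), Mrc1 (-0.81 ± 0.07) and Spp1 (-1.56 ± 0.15) were lower too, each in 4 of 4 libraries. Arg1 (-1.71 ± 0.30) did not pass (adjusted p = 0.0639).

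Cxcl10-detected cells carried both interferon programmes and NF-kB genes. Here 437 of 8851 genes were higher (4.94%) and 283 lower (3.2%), and both together fell from 720 to 409 without S3. Of 23 interferon-gamma route genes 16 were higher, of 23 type I genes 16 and of 8 NF-kB genes 7, with medians of 0.72, 0.77 and 0.49 against -0.02 for all genes. Ifit1 stood at 39.0, 79.9, 53.9 and 30.4 CPM in undetected cells and at 152, 232, 208 and 143 CPM in detected cells, with no overlap. Rsad2 (1.82 ± 0.09), Ifit3 (1.42 ± 0.09), Gbp5 (2.11 ± 0.19), Irf1 (1.23 ± 0.09), Socs1 (1.60 ± 0.16) and Tnf (1.10 ± 0.10) were higher in 4 of 4 libraries, and Ifnb1 (3.06 ± 0.41) in 3 of 4. The haemoglobin gene Hba-a1 (2.997 ± 0.17) was called from S4 alone, where it was at 347 CPM. Monocytes made up 24.7% of Cxcl10-detected and 10.5% of undetected cells, against 15.9% and 14.2% for Cxcl9.

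The 2 comparisons share cells, so cells with Cxcl10 alone were set directly against cells with Cxcl9 alone, a contrast added after the first values had been seen. There 494 of 6960 genes were higher (7.1%) and 300 lower (4.31%), 794 in both directions, against 491 without S1, 514 without S2 and 518 without S3. Of 23 type I genes 14 were higher and 0 lower, with a median of 1.17, and of 23 interferon-gamma route genes 5 were higher and 1 lower. Ifit3 was at 202, 311, 291 and 127 CPM in cells with Cxcl10 alone and at 47.4, 80.5, 46.0 and 29.1 CPM in cells with Cxcl9 alone. Cmpk2 (2.85 ± 0.24), the NF-kB inhibitor Nfkbia (0.99 ± 0.06), the cytokine Osm (1.54 ± 0.10), the endotoxin co-receptor Cd14 (1.24 ± 0.09) and Hp (2.30 ± 0.17) were also higher. Lower were H2-Ab1 (-0.56 ± 0.05), Cd74 (-0.43 ± 0.06), Fcgr4 (-0.75 ± 0.07) and Cxcl16 (-0.74 ± 0.08), each in 4 of 4 libraries. Within C1q macrophages 11 of 22 type I genes were higher and 1 was lower, where 3.4% of 6508 genes were higher and 1.41% lower. Within monocytes 7 of 16 were higher and 1 was lower, against 2.9% and 1.32% of 2651 genes. Monocytes were 199 of the 734 cells with Cxcl10 alone and 108 of the 997 with Cxcl9 alone. The values of the genes named above are those of the pooled gate, whose make-up thus differed between the 2 sides. Of the 794 calls, 273 recurred in the same direction within C1q macrophages and 94 within monocytes.

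**Figure D5:**
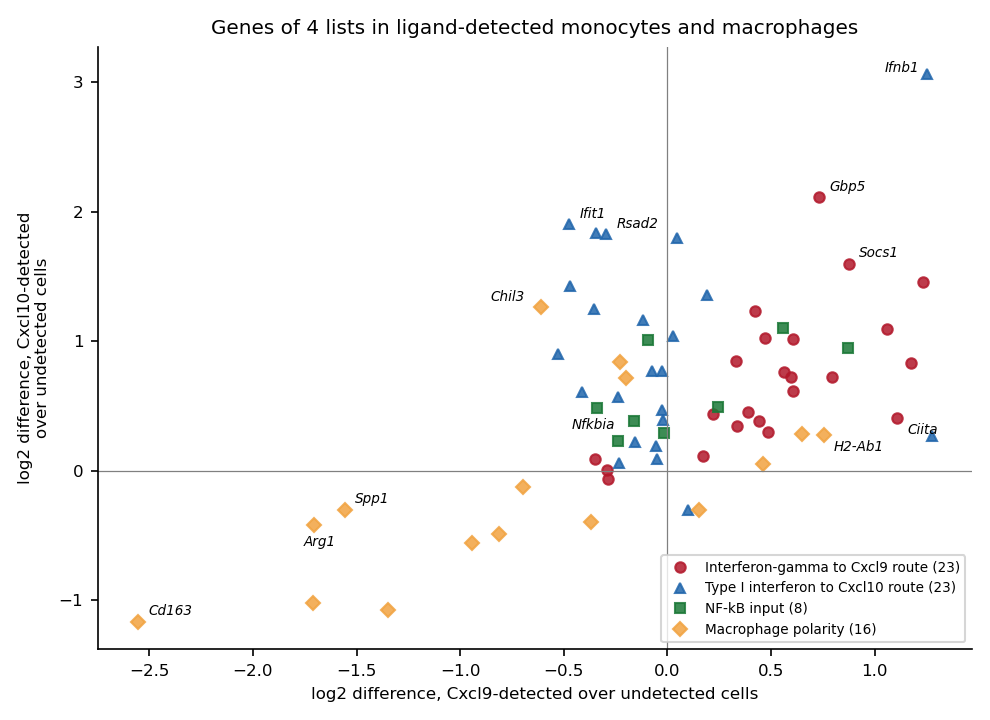
Log2 difference between cells with and without a Cxcl9 UMI (horizontal) and with and without a Cxcl10 UMI (vertical) for genes of 4 lists in the monocyte or macrophage gate; the 2 comparisons share cells. Type I interferon genes such as Ifit1 and Rsad2 lie high on the Cxcl10 axis and near 0 or below on the Cxcl9 axis.

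CD8 T cells with Cxcr3 had less of the late effector granzymes. The comparison rested on 54 cells (14, 17, 15 and 8 in S1 to S4), and 0 of 5770 genes were higher (0%) and 18 lower (0.312%) by edgeR. Without S2 the calls numbered 42, without S3 7 and without S4 8. Gzmb was at 1117, 2398, 1778 and 865 CPM in Cxcr3-detected cells and at 1568, 3332, 3235 and 2315 CPM in undetected cells (-0.92 ± 0.12), lower in 4 of 4 libraries. Gzmc had 6 UMIs in detected cells where 119.6 would match the undetected level, and Gzmf 4 where 176.2 would. Gzmd and Gzme had 0 UMIs, which puts them at least 18.8-fold and 13.3-fold lower, counting 3 UMIs over the group as the floor. Of 16 effector and memory genes tested 5 were lower. Gzmk, a granzyme of less differentiated cells, was at 110, 211, 154 and 96.2 CPM against 53.8, 107, 62.0 and 50.9 CPM (0.93 ± 0.35), higher in 4 of 4 libraries without passing (adjusted p = 0.389).

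Across 12 gates, on log2(mean CPM + 10), the genes most like Cxcl10 were Oas1a (Pearson r = 0.962), Gm7676 (0.953), Ifit3 (0.951), Oas2 (0.922), Batf2 (0.920) and Emilin2 (0.912), chosen from 8819 genes. For Cxcl9 they were Phf11d (0.942), Rras (0.923), Batf2 (0.922), Anxa5 (0.921), Ifitm2 (0.920) and Nod1 (0.915). The 2 ligands reached 0.829 with each other. For Cxcr3 they were Xab2 (0.919), Gm12728 (0.906), Gna15 (0.869), Cog2 (0.867), Sh2d3c (0.860) and Kbtbd11 (0.860). The gates share libraries, so these values describe the pattern only.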

How the data were processed

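The authors deposited raw UMI counts as 1 matrix of genes by barcodes, with a gene list and a barcode list. The build mm10 and the tools Cell Ranger and Seurat 2.2.0 come from the submitters' processing notes, and the sources used here name no other settings. Barcode names give the group but no replicate number. Separate tumours are named by the series design, but separate animals are not, and p-values cover only the spread between these libraries.

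Of 8838 barcodes, 161 were removed for fewer than 500 genes or over 10% mitochondrial UMIs, and 108 (1.24%) were removed as doublets by Scrublet in scanpy 1.11.5 at a score of 0.1, set after the scores had been seen, which left 8569. Gates used minimum UMIs of marker genes, with 40 cells within 1 UMI of the T cell minimum and 469 of the monocyte or macrophage minimum. UMI counts were summed per library and gate and compared with edgeR 4.0.16 (R 4.3.3, TMM, default filter, robust quasi-likelihood fit, Benjamini-Hochberg over all genes, threshold 0.05). Genotype differences were tested where every library held 50 cells. The comparisons between lymphocyte gates, and some by detection, rested on fewer cells. DESeq2 1.42.0 was an alternative, with other size factors, filters, gates, cells and each library left out. On simulated T cell counts, 79 of 100 genes changed by 1 log2 unit and 100 of 100 changed by 2 were recovered among 9391. Each run also gave 5 false calls. That recovery holds for the simulated spread and need not hold for these libraries. In the real T cell gate Cxcl10 at 1.63 and Cxcl9 at 1.65 did not pass. Beyond the 3 genes, the text names members of the lists, the 8 genes with the smallest p per direction, and the 6 most alike by gate. Members and lists were chosen with earlier results of these data known. Promoters came from RefSeq, positions from GENCODE. Some genes of the lists are not reported here by name.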

Additional observations from a re-analysis of the deposited data

Results flagged for a closer look

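Cxcl10 in cDC1 moved the other way from most gates. It was at 34.5 and 10.9 CPM in S1 and S2 and at 48.5 and 45.8 CPM in S3 and S4, a log2 ratio of group means of -1.05, while in C1q macrophages both Adar1-null libraries lay above both controls. The cDC1 values rest on 6, 2, 13 and 15 UMIs, and the difference between the gates was not tested.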

How the results depend on the processing

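Of 274 alternative values for 37 results, 224 kept their direction and their side of the threshold or their size. Among genotype differences only that of Cxcl10 in CD8 T cells had passed in the main test. For the others, staying below the threshold for a call with the same sign counted as kept. No paired analysis was possible because the library names carry no replicate number. The contrast of CD8 T cells with conventional CD4 T cells was not run, since the other T gate held 50 cells in all, nor was detection by 2 Cxcr3 UMIs, for which 1 library had no cell, nor Leiden classes for monocytes and other myeloid cells, which held too few cells in a library.

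Cxcl10 in CD8 T cells lost its call with doublets kept (1.83), with a stricter gate (1.61) and without cells with a myeloid UMI (1.60). Cxcl10 over all T cells passed with equal numbers of cells (1.78), Leiden classes (1.66), a stricter gate (1.60), without cells with a myeloid UMI (1.59), with DESeq2 (1.64) and with no filter (1.64). Cxcl9 passed in all T cells with no filter (1.65), and in CD8 T cells with equal numbers of cells (2.26), Leiden classes (2.54), DESeq2 (2.19) and no filter (2.17). Cxcr3 in CD8 T cells, near 0 throughout, was at -3.9e-05 with doublets kept, -0.0081 with DESeq2 and -0.00062 with DESeq2's size factors.

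With each library left out in turn, a lone library in a group is assumed to vary like the others. Cxcl9 then ranged from 1.11 to 2.49 in T cells (passing without S3), 1.60 to 2.61 in CD8 T cells (passing without S1 or S2), 0.17 to 1.70 in monocytes (passing without S1), 0.55 to 3.85 in other myeloid cells and 0.53 to 2.18 in the melanoma gate (both passing without S3). Cxcl10 ranged from 1.19 to 2.27 in T cells (passing without S3), 1.51 to 2.12 in CD8 T cells, -0.40 to 0.996 in other myeloid cells (below 0 without S2 or S4) and -0.68 to 1.61 in the melanoma gate (below 0 without S2). Cxcr3 ranged from -0.055 to 0.27 in T cells (below 0 without S4), from -0.23 to 0.26 in CD8 T cells and from -0.90 to 0.21 for CD8 T against NK cells. Other myeloid Cxcl10 was -0.22 without S2.

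Genes that differed by detection numbered 511 to 935 for Cxcl9, 409 to 643 for Cxcl10, 7 to 42 for Cxcr3 and 491 to 800 for Cxcl10 alone against Cxcl9 alone with a library left out. Within C1q macrophages there were 597, 407 and 313 for the ligand comparisons, and within monocytes 112 for the last, settings chosen after seeing the data. Of the 986 and 720 main calls for Cxcl9 and Cxcl10, 550 and 348 were shared with those in C1q macrophages. The fewer cells tested go with the lower counts, and the cause was not tested further. Without thinning, 43.5% and 9.38% of monocyte or macrophage and T gate cells had Cxcl9, 38.1% and 14.96% Cxcl10, and 2.22% and 14.2% Cxcr3. Depth limits Cxcr3, which had at most 186 UMIs a library.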

Other observations

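The 185 barcodes with markers of 2 lineages held 522, 488, 842 and 25 Cxcl9 UMIs and 263, 366, 365 and 40 Cxcl10 UMIs in S1 to S4. They entered no comparison by gate but were part of the whole-infiltrate sums and their genotype differences. Of them, 110 had T or NK and myeloid markers and 49 melanoma and myeloid markers.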
